A study of Mus musculus with 8 samples.

Results

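The endocannabinoid receptor and enzymes described here are the cannabinoid receptor gene Cnr1 and 7 genes whose products make or break down the receptor's lipid ligands, namely Dagla, Daglb, Mgll, Abhd6, Abhd12, Faah and Napepld. They were chosen by name, with earlier results of these data known: every non-control probe whose accession RefSeq gives to one of these 8 symbols was taken. This gave 12 probes on 21 spots, of 39429 probes in all, and 11 of the 12 were bright enough to be tested, with at least 1 probe for each of the 8 genes. The samples were cultured, dissociated mouse hippocampal neurons, in a study of how Nr4a1, an activity-induced transcription factor of the orphan nuclear receptor family, bears on dendritic spines and excitatory synapses. After 10 days in culture the neurons received lentivirus carrying either Flag-tagged Nr4a1 or GFP, and RNA was taken after 6 further days. There were 4 arrays labelled Nr4a1 and 4 labelled GFP, joined by the labels into 4 pairs. The GFP cultures carried a virus too, so both groups had been infected. The labels give neither the promoter that drives the transgene nor the share of cells infected, and they do not say whether replicates came from separate cultures, so the p-values reflect spread that may be only technical.

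Endocannabinoids are lipids that a postsynaptic neuron makes on demand and that travel backwards across the synapse. They bind CB1, the G protein-coupled receptor encoded by Cnr1, on presynaptic terminals and lower transmitter release. The main ligand in brain, 2-arachidonoylglycerol (2-AG), is made by the diacylglycerol lipases encoded by Dagla and Daglb and is hydrolysed by the products of Mgll, Abhd6 and Abhd12. The other, anandamide, is made in part by the phospholipase D encoded by Napepld and is hydrolysed by fatty acid amide hydrolase, encoded by Faah. In hippocampus CB1 is densest on a class of inhibitory basket cells that contain cholecystokinin and is also found on glutamatergic terminals.

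Each array held RNA of 1 sample of cultured neurons labelled with Cy5 and a commercial mouse reference RNA labelled with Cy3. A level below is the log2 ratio of Cy5 over Cy3 for 1 probe. A ratio says how the culture compared with the reference for that probe, so levels of different genes cannot be ranked from it. Differences are Nr4a1-labelled minus GFP-labelled on the log2 scale, from limma with the pair as a block, and a gene was called where its Benjamini-Hochberg adjusted p over 21116 genes and unnamed transcripts, together called features, was under 0.05. Between 60.9% and 69.2% of the spots of an array were well above background in Cy5. Slide 1 held the 4 GFP-labelled arrays, slide 2 held Nr4a1-labelled replicates 1, 2 and 3, and slide 3 held replicate 4. No slide held both groups. The probe for Nr4a1 itself read -2.06, -2.12, -1.90 and -2.49 on the GFP-labelled arrays and -1.32, -2.49, -1.20 and -2.37 on the Nr4a1-labelled arrays, a difference of 0.30 ± 0.15 (SE, n = 4 pairs) that was not called (limma, adjusted p = 0.196). Nr4a1-labelled replicates 2 and 4 lay within the GFP range. The place of this probe relative to the Flag-Nr4a1 transgene is not known here, so it does not check the labels.

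Of the 8 genes, Abhd6 rose and Napepld and Faah fell in Nr4a1-labelled cultures, while Cnr1, Dagla, Daglb, Mgll and Abhd12 were not called. Napepld had the largest difference, as its ratio fell by 29.6%, and the other 2 called genes moved by 1.19-fold each. These 3 calls of 8 stood against 24.4% of all features called in either direction, 12.8% higher and 11.5% lower. With so few genes, 3 of 8 is a share close to that background. The median difference of the 8 genes was -0.20, beside -0.0034 over all features, and the median size of the difference regardless of sign was 0.24 beside 0.11. In 4 of the 8 genes, Mgll, Abhd6, Faah and Napepld, no value of 1 group lay within the range of the other, which held for 24.4% of all features. In these bulk cultures, fewer cells of a type and less RNA per cell cannot be told apart.

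**Figure D1:**
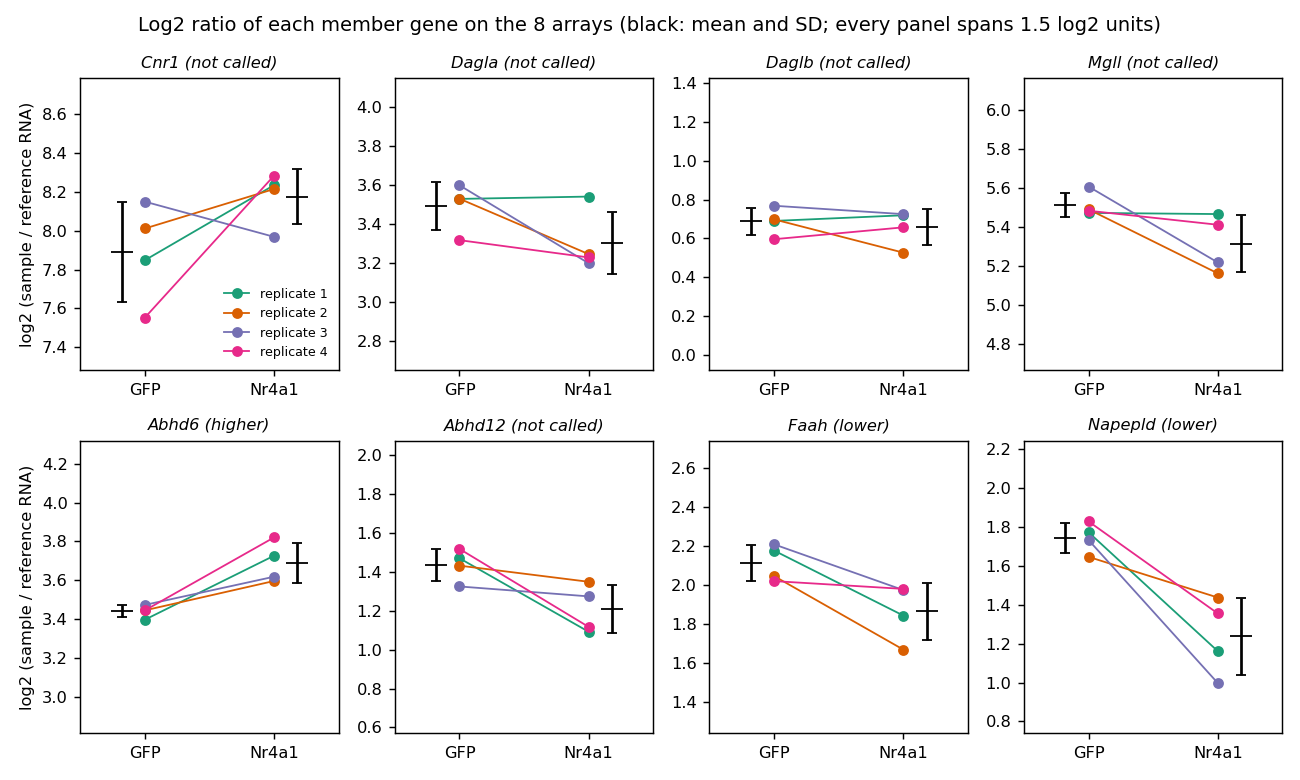
Log2 ratio of culture over reference RNA (y axis) of each of the 8 genes on the 4 GFP-labelled and 4 Nr4a1-labelled arrays (x axis). Coloured lines join the arrays of a replicate pair, black bars are the group mean and SD, and all panels span the same number of log2 units; the lines of Napepld and Abhd6 all run one way, whereas those of Cnr1, Dagla and Daglb run both ways.

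The stretches of genome just upstream of the 3 called genes are given because the agent varied was a transcription factor. They come from the RefSeq promoter table on the build GRCm38.p6, in the direction of transcription, with the 250 bases that precede an annotated start. Capitals mark CpG dinucleotides.
Napepld, chr5:21701623-21701872, minus strand: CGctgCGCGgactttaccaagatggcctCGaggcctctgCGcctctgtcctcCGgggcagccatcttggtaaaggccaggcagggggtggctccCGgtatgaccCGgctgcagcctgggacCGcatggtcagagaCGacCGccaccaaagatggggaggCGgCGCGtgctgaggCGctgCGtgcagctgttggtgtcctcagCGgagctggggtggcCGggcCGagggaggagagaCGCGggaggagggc
Faah, chr4:116017925-116018174, minus strand: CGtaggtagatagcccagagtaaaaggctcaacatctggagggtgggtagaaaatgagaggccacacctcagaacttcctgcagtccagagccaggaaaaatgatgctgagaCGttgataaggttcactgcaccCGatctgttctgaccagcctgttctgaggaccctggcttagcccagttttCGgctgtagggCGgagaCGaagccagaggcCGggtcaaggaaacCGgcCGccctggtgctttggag
Abhd6, chr14:8002638-8002887, plus strand: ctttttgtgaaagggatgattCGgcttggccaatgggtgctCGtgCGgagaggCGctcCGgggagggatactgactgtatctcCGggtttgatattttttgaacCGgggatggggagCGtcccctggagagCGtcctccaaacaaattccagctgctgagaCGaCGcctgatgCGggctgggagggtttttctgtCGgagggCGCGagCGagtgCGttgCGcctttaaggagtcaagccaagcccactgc
Over the 300-base window that includes 50 bases after the start, the Napepld window was 70.3% G and C with 28 CpG. The Faah window was 57.7% G and C with 16 CpG, and the Abhd6 window shown 60.7% with 24. Abhd6 had another annotated start, whose window overlaps the one shown and was 62.3% G and C with 26 CpG. The median over the 32851 windows of the table was 52.7% with 7 CpG, so the windows of all 3 genes held more CpG than the median window.

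The table held 10 windows for 6 of the 8 genes, with no entry matched for Dagla or Abhd12. The windows of Abhd6 overlap, so the 10 are not all separate stretches. Nr4a1 is known to bind as a monomer to the NBRE motif AAAGGTCA. On both strands this motif was in 0 of the 10 windows and in 1.51% of all windows. The cyclic AMP response element TGACGTCA, the site of the activity-dependent factor CREB, was in 0 of 10 and in 1.79% of all. The shorter nuclear receptor half-site AGGTCA, which also lies inside every NBRE, was in 1 of 10 windows and in 16.3% of all. That 1 match was upstream of the first Cnr1 start, on the minus strand, beginning at base -8, and is shown in capitals as it reads on the plus strand, because Cnr1 is the gene whose direction depended most on the processing.
Cnr1, chr4:33924241-33924276, plus strand: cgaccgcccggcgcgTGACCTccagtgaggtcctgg
These are matches of letters in a short window, and a window without a match says nothing of binding elsewhere.

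Napepld encodes the phospholipase D that releases anandamide and related N-acylethanolamines from membrane phospholipids, and its fall was the largest among the 8 genes. Its log2 ratio was 1.77, 1.65, 1.73 and 1.83 on the GFP-labelled arrays and 1.16, 1.44, 1.00 and 1.36 on the Nr4a1-labelled arrays, in the order of replicates 1 to 4 used throughout. Every Nr4a1-labelled value was below every GFP-labelled one, and the Nr4a1-labelled values were the more spread. The group means were 1.74 ± 0.08 and 1.24 ± 0.20 (SD, n = 4 each), and the pairs differed by -0.61, -0.21, -0.73 and -0.47. The fitted difference was -0.51 ± 0.08 (SE), a ratio of 0.704 (limma, adjusted p = 0.00193). The fall lay in the culture channel. Cy5 alone differed by -0.62 ± 0.10 (limma, adjusted p = 0.00269), and the reference channel by -0.077 ± 0.044, which was not called. Alternative settings were tried as well, and not all of them are separate checks. Normalising between arrays leaves every ratio unchanged, and batch 1 alone holds the same arrays as the fit without replicate 4. The difference stayed between -0.63 and -0.43 in 20 such settings, with adjusted p from 0.00012 to 1. The call was lost in 1 of them, a fit with slide as a random block (-0.50 ± 0.36, adjusted p = 1), under which 8 features rose and 4 fell in all.

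Faah encodes the amidase that hydrolyses anandamide, so its substrate is the product of the Napepld enzyme. Its log2 ratio was 2.18, 2.05, 2.21 and 2.02 on the GFP-labelled arrays and 1.84, 1.67, 1.97 and 1.98 on the Nr4a1-labelled arrays. The groups did not overlap, but the highest Nr4a1-labelled value lay just under the lowest GFP-labelled one. The means were 2.11 ± 0.09 and 1.87 ± 0.15 (SD, n = 4 each), and the pairs differed by -0.34, -0.38, -0.23 and -0.04. The fitted difference was -0.25 ± 0.07 (SE), a ratio of 0.843 (limma, adjusted p = 0.0273). The call was lost in 9 of 20 settings, among them those without replicate 1 (-0.22), without replicate 2 (-0.20) and without replicate 3 (-0.25), with adjusted p of 0.109, 0.130 and 0.0592, and over all settings adjusted p ran from 0.0154 to 1. The Cy5 signal of the Faah probe lay between 583 and 1248. Nr4a1-labelled replicate 2 was the highest array in both channels, at 1248 and 278 before normalisation. Cy5 alone gave -0.28 ± 0.11 with overlapping groups (limma, adjusted p = 0.0811).

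Among 14980 named genes, the 3 with the highest Pearson r with Napepld were Zmynd19 (0.982), Armc10 (0.981) and Fbln2 (0.978), and Armc10 neighbours Napepld in the RefSeq gene table. Armc10 differed by -0.34 ± 0.07 (limma, adjusted p = 0.0053), with pair differences of -0.32, -0.17, -0.50 and -0.37. For both genes replicate 3 had the largest fall and replicate 2 the smallest. Armc10 was picked by its r over the same arrays, so this likeness is no separate observation. Pmpcb, the neighbour on the other side, differed by 0.043 ± 0.059 and was not called. The neighbours of all 8 genes were looked up after this pattern was seen. Of 16 neighbours 10 were tested, of which 1 was higher, 2 were lower and 7 were not called, a share close to the 24.4% of all features called. Pygb, the glycogen phosphorylase gene next to Abhd12, was the other lower one at -0.54 ± 0.07 (limma, adjusted p = 0.00031), and Nsun4, next to Faah, was higher at 0.28 ± 0.06 (limma, adjusted p = 0.0059), against the direction of Faah.

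Dagla encodes the diacylglycerol lipase that makes most of the 2-AG used for signalling across synapses. Its log2 ratio was 3.53, 3.53, 3.60 and 3.32 on the GFP-labelled arrays and 3.54, 3.24, 3.20 and 3.23 on the Nr4a1-labelled arrays. Nr4a1-labelled replicate 1 stood among the GFP-labelled values, while the other 3 were below all of them. The means were 3.49 ± 0.12 and 3.30 ± 0.16 (SD, n = 4 each), and the fitted difference was -0.19 ± 0.08 (SE; 95% interval -0.36 to -0.02), which was not called (limma, adjusted p = 0.0964). It passed the threshold in 0 of 20 alternative settings, in which it ran from -0.35 to -0.075, with adjusted p from 0.0592 to 1. Cy5 alone gave -0.075 ± 0.075, and the reference channel alone gave 0.099 ± 0.039, and neither was called (limma, adjusted p = 0.480 and 0.135).

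Daglb encodes the second diacylglycerol lipase, which is the main form in macrophages and microglia. Its log2 ratio was 0.69, 0.70, 0.77 and 0.60 on the GFP-labelled arrays and 0.72, 0.53, 0.73 and 0.66 on the Nr4a1-labelled arrays. Apart from Nr4a1-labelled replicate 2, the lowest of the 8, the Nr4a1-labelled values lay within the GFP range. The difference was -0.03 ± 0.06 (SE, n = 4 pairs; 95% interval -0.17 to 0.11; limma, adjusted p = 0.762). This interval makes Daglb the most tightly bounded of the genes that were not called. Its probe was printed on 10 spots of every array, and the spots of 1 array had an SD of 0.029 to 0.066, against an SD over arrays of 0.07 and 0.09 within the groups.

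Mgll encodes monoacylglycerol lipase, the main enzyme of 2-AG breakdown in neurons and astrocytes. On its brightest probe the log2 ratio was 5.47, 5.49, 5.61 and 5.48 on the GFP-labelled arrays and 5.47, 5.16, 5.22 and 5.41 on the Nr4a1-labelled arrays. The groups did not overlap, yet replicate 1 differed by only -0.006 and replicate 4 by -0.07. The fitted difference was -0.20 ± 0.08 (SE; 95% interval -0.37 to -0.03) and was not called (limma, adjusted p = 0.0859). A probe annotated to another Mgll transcript, A_55_P2063312, read 3.63, 3.64, 3.81 and 3.49 on the GFP-labelled arrays and 3.27, 3.34, 3.31 and 3.19 on the Nr4a1-labelled arrays. It fell in all 4 pairs, by -0.36 ± 0.06 (SE; limma with every probe as its own feature, adjusted p = 0.00235), in a fit that called 23.8% of all probes. Another tested probe, A_55_P2114863, is annotated to the same transcript as the brightest probe. It differed by -0.27 ± 0.09 and was not called (adjusted p = 0.067), with pair differences from -0.57 to 0.03. The fourth, A_55_P2063311, is annotated to the same transcript as A_55_P2063312 but exceeded background clearly on none of the 8 arrays. The fall on A_55_P2063312 was thus not seen on a further probe of that transcript. The mean of the tested probes gave -0.28 (limma, adjusted p = 0.0186). On the brightest probe Cy5 alone gave -0.235 ± 0.064 (limma, adjusted p = 0.0249). Whether Mgll counts among the genes that fell thus depended on the probe and on the channel. Over 20 settings its adjusted p ran from 0.00101 to 1.

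Abhd6 encodes a serine hydrolase of the postsynaptic membrane that breaks down part of the 2-AG near its site of synthesis, and it was the only one of the 8 genes called higher. Its log2 ratio was 3.40, 3.45, 3.47 and 3.45 on the GFP-labelled arrays and 3.73, 3.60, 3.62 and 3.82 on the Nr4a1-labelled arrays. All Nr4a1-labelled values were above all GFP-labelled ones, which kept between 3.40 and 3.47. The means were 3.44 ± 0.03 and 3.69 ± 0.10 (SD, n = 4 each), and the difference was 0.25 ± 0.06 (SE), a 1.19-fold higher ratio (limma, adjusted p = 0.0192). A further probe for the same transcript, A_55_P2029366, gave 0.25 ± 0.06 as well (limma, adjusted p over probes = 0.0163), with pair differences of 0.32, 0.17, 0.17 and 0.34 beside 0.33, 0.15, 0.14 and 0.38 on the first. Replicates 1 and 4 carried the larger differences on both probes. Cy5 alone gave 0.47 ± 0.06 (limma, adjusted p = 0.00071), and the reference channel, described with Cnr1, was higher too. The call was lost in 7 of 20 settings, and in 1 of these, with spots of non-uniform background kept, the sign turned (-0.012, adjusted p = 0.984). Without replicate 1 the difference was 0.22 (adjusted p = 0.0796) and without replicate 4 it was 0.21 (adjusted p = 0.0789), in a range from 0.00071 to 1 over all settings.

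**Figure D2:**
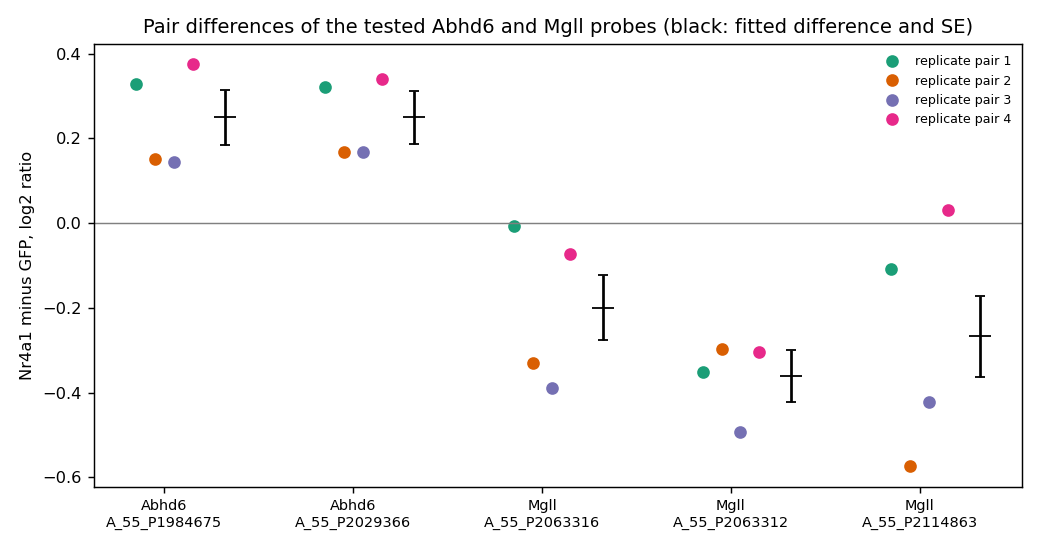
Nr4a1-labelled minus GFP-labelled log2 ratio (y axis) of the 5 tested probes of Abhd6 and Mgll (x axis). Coloured points are the 4 replicate pairs and black bars the fitted difference and its SE; the 2 Abhd6 probes agree pair by pair, while the 3 Mgll probes differ most in replicates 1 and 4.

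Abhd12 encodes the third 2-AG hydrolase, which also breaks down lysophosphatidylserine. Its log2 ratio was 1.47, 1.43, 1.33 and 1.52 on the GFP-labelled arrays and 1.09, 1.35, 1.27 and 1.12 on the Nr4a1-labelled arrays. Replicates 1 and 4 were low, and replicate 2 lay within the GFP range. The difference was -0.23 ± 0.08 (SE, n = 4 pairs; 95% interval -0.40 to -0.06) and missed the threshold (limma, adjusted p = 0.0527). It passed in 6 of 20 settings, among them the culture channel alone (-0.36 ± 0.09, limma, adjusted p = 0.0205), the fit without the pair block (adjusted p = 0.0437) and the fit without replicate 3 (-0.29), and was negative in all 20, with adjusted p from 0.0205 to 1.

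Cnr1 encodes CB1, and its direction depended on how the ratio was formed. The log2 ratio was 7.85, 8.01, 8.15 and 7.55 on the GFP-labelled arrays and 8.23, 8.21, 7.97 and 8.28 on the Nr4a1-labelled arrays. Pairs 1, 2 and 4 were higher, by 0.39, 0.20 and 0.73, and pair 3 was lower, by -0.18. The difference was 0.28 ± 0.12 (SE; 95% interval 0.02 to 0.55) and was not called (limma, adjusted p = 0.112). Without replicate 3 it was 0.44 ± 0.10 and was called (limma, adjusted p = 0.0127), in a range from 0.00188 to 1 over 20 settings.

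The channels of Cnr1 differed in how far they stood above background. In the culture channel the probe was bright, at 22346, 28690, 27003 and 15299 on the GFP-labelled arrays and 36381, 40081, 37192 and 27176 on the Nr4a1-labelled arrays. In the reference channel it was close to background, at 52 to 61 on the GFP-labelled arrays and 65 to 69 on the Nr4a1-labelled arrays, and was well above background on 2 of the 8. In Cy5 alone, normalised between arrays, Cnr1 was 0.49 ± 0.11 higher with no overlap of the groups (limma, adjusted p = 0.0133), in a fit that called 29.1% of all features. The scanner software's own ratio gave -0.67 ± 0.18 instead, lower in all 4 pairs and not called (limma, adjusted p = 0.0675). The ratio reported here was corrected for background too, with an offset of 50 added to both channels. With an offset of 16 the Cnr1 difference was 0.15 ± 0.14 and was not called (limma, adjusted p = 0.468). The reference RNA was the same product on every array, yet in Cy3 alone Cnr1 was 0.17 ± 0.04 higher (limma, adjusted p = 0.0434), as was Abhd6 by 0.20 ± 0.05 (limma, adjusted p = 0.048). Of all features 13.2% were called in the reference channel, 1427 higher and 1353 lower, with a median size of 0.0757 beside 0.138 in Cy5. Each slide held arrays of 1 group, so slide and transgene cannot be told apart in these differences. In Cy5 alone 5 of the 8 genes were called, namely Cnr1 and Abhd6 higher and Mgll, Abhd12 and Napepld lower.

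**Figure D3:**
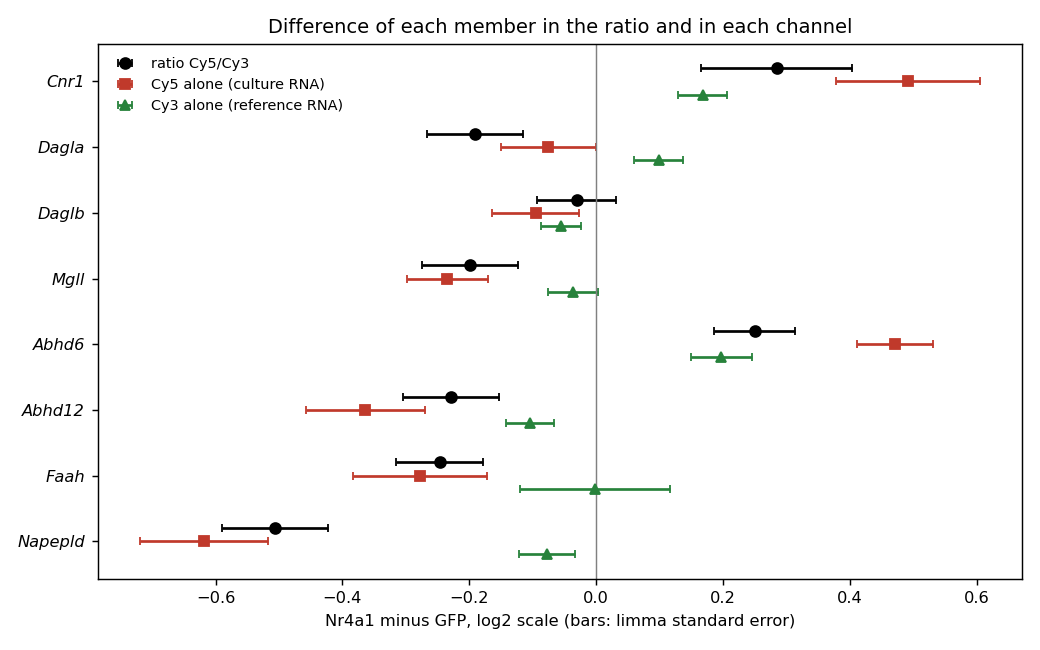
Nr4a1-labelled minus GFP-labelled difference on the log2 scale (x axis) of each of the 8 genes (y axis), in the ratio, in the culture channel Cy5 alone and in the reference channel Cy3 alone, with bars for the limma standard error. Cnr1 and Abhd6 are the genes whose reference channel lies farthest above 0, and Napepld is far below 0 in the ratio and in Cy5 while its reference channel lies near 0.

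**Figure D4:**
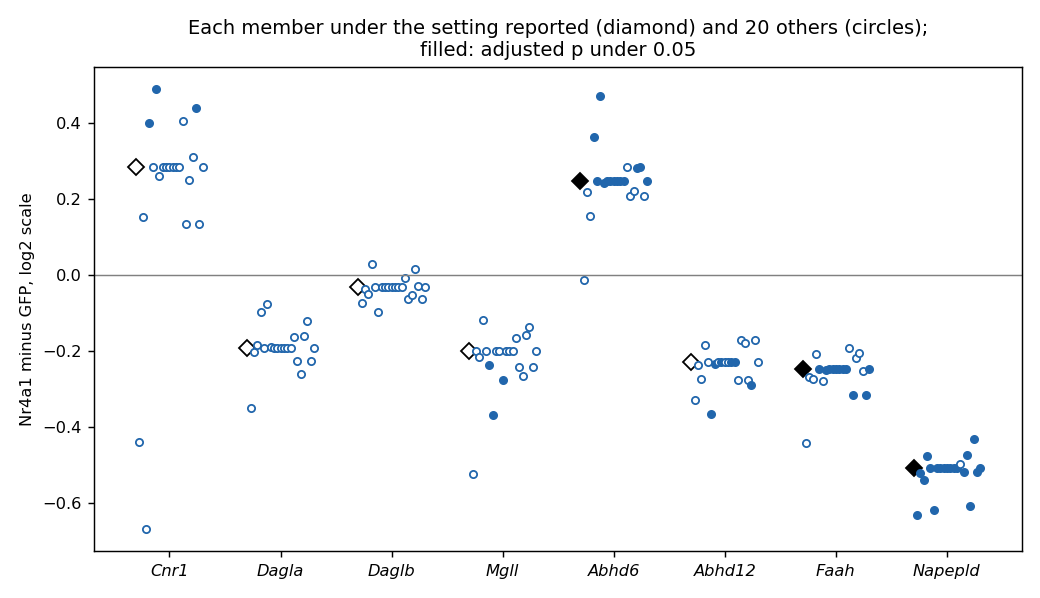
Difference of each of the 8 genes (y axis, log2 scale) with the processing reported here (diamond) and with 20 other settings (circles), filled where the limma adjusted p was under 0.05. Napepld stays between -0.63 and -0.43, and Cnr1 spreads from -0.67 to 0.49.

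Around these 8 genes, 59 others that supply, carry, break down or transduce endocannabinoids were listed by role. Of these, 47 were tested, of which 5 rose, 12 fell and 30 were not called, so 36.2% were called beside 24.4% of all features. Their median difference was -0.03. These genes were listed with earlier results of these data known, so the share called is no independent comparison with all features. Among the carriers of these lipids inside cells, Fabp3 fell by 0.69 ± 0.07 on the log2 scale (SE; limma, adjusted p = 6.8e-05) and Fabp5, the fatty acid binding protein known to ferry anandamide and 2-AG, fell by 0.40 ± 0.06 (limma, adjusted p = 0.00176). Fabp5 read 1.53, 1.51, 1.53 and 1.69 on the GFP-labelled arrays and 1.05, 1.19, 1.26 and 1.18 on the Nr4a1-labelled ones, with no overlap. Scp2, a sterol carrier, rose by 0.31 ± 0.06 (limma, adjusted p = 0.00483), and Fabp7 was not called.

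Genes of the other routes to anandamide gave 1 rise and 2 falls among 6 tested of 10. Abhd4, whose product strips acyl chains from the same precursors that the Napepld enzyme cuts, read 1.52, 1.44, 1.60 and 1.42 on the GFP-labelled arrays and 1.90, 1.89, 1.90 and 1.86 on the Nr4a1-labelled arrays. The groups did not overlap, and the difference was 0.39 ± 0.06 (SE; limma, adjusted p = 0.00109), opposite to that of Napepld. Plaat1, an acyltransferase that can form the precursors, differed by -0.31 ± 0.08 with overlapping groups (limma, adjusted p = 0.0244). Gdpd1, a lysophospholipase D, differed by -0.20 ± 0.06 without overlap (limma, adjusted p = 0.0436). Among enzymes that consume the lipids otherwise, 5 of 8 were tested. Of these, Ddhd2, a brain lipase, rose by 0.25 ± 0.06 (limma, adjusted p = 0.0116). Ptgs2, the activity-induced cyclooxygenase that can oxidise both ligands, read -1.84, -2.97, -0.79 and -2.60 on the Nr4a1-labelled arrays beside -2.86 to -2.60 on the GFP-labelled ones. Its values were high in replicates 1 and 3 only, and it was not called (0.74 ± 0.24; limma, adjusted p = 0.0502). The Nr4a1 probe was highest on the same 2 arrays. Abhd16a, a phosphatidylserine lipase, was not called either (-0.17 ± 0.07; limma, adjusted p = 0.0885).

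Among 11 genes listed for the supply of 2-AG precursors and the receptors, G proteins and phospholipases that drive it, all tested, 2 rose and 3 fell. The falls included Chrm1, the M1 muscarinic receptor gene, at -0.20 ± 0.06, and Gna11, a G protein gene, at -0.26 ± 0.07 (limma, adjusted p = 0.0471 and 0.021). The rises were in Ddhd1, a phospholipase, at 0.33 ± 0.07, and Plcb3, a phospholipase C, at 0.21 ± 0.06 (limma, adjusted p = 0.00838 and 0.0267). The groups overlapped for Chrm1, Gna11, Ddhd1 and Plcb3 alike. The sign for Ddhd1 turned to -0.01 when spots with a non-uniform background were kept. Of 7 other receptors of these lipids, Cnr2, Ppara and Pparg were tested and not called, while Gpr55, Gpr18, Gpr119 and Trpv1 did not pass the brightness filter.

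Of 18 tested partners and effectors of CB1, 5 fell and 13 were not called, so 27.8% were called, close to the 24.4% of all features. Grk3, a kinase that marks active G protein-coupled receptors for desensitisation, read 3.05, 3.22, 3.33 and 3.01 on the GFP-labelled arrays and 2.79, 2.54, 2.57 and 2.53 on the Nr4a1-labelled arrays, without overlap. It fell by 0.54 ± 0.08 on the log2 scale (SE; limma, adjusted p = 0.00122). The arrestins that bind receptors so marked fell as well, Arrb1 by 0.38 ± 0.06 and Arrb2 by 0.39 ± 0.09 (limma, adjusted p = 0.00128 and 0.0114). The groups overlapped for Arrb1 but not for Arrb2. Adcy1 and Adcy5, genes of adenylyl cyclases, the enzyme class that CB1 acts on through Gi proteins, differed by -0.29 ± 0.07 and -0.21 ± 0.07 (limma, adjusted p = 0.0139 and 0.0466). For both cyclase genes the groups overlapped. Gnai1 (-0.23 ± 0.08) and Cnrip1, the CB1-interacting protein gene (-0.19 ± 0.07), were not called (limma, adjusted p = 0.0639 and 0.0806). Of the 17 called genes in these groups, Grk3, Arrb1, Fabp3 and Abhd4 kept their call and sign in 18 of 20 alternative settings, while Adcy5, Gdpd1 and Chrm1 kept theirs in 8, 7 and 6. All 17 lost their call with slide as a random block and with spots of non-uniform background kept. Few features of any kind kept a call there. Of 21116 features, 8 rose and 4 fell in the first setting and 130 rose and 98 fell in the second, against 2711 and 2434 as reported. Leaving out 1 pair ended the call, among others, of Gna11 (replicate 1 or 2), Plcb3 (1, 2 or 4), Plaat1 (2 or 4), Adcy1 (3), Adcy5 (1, 2 or 3) and, for any pair, Chrm1 and Gdpd1.

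**Figure D5:**
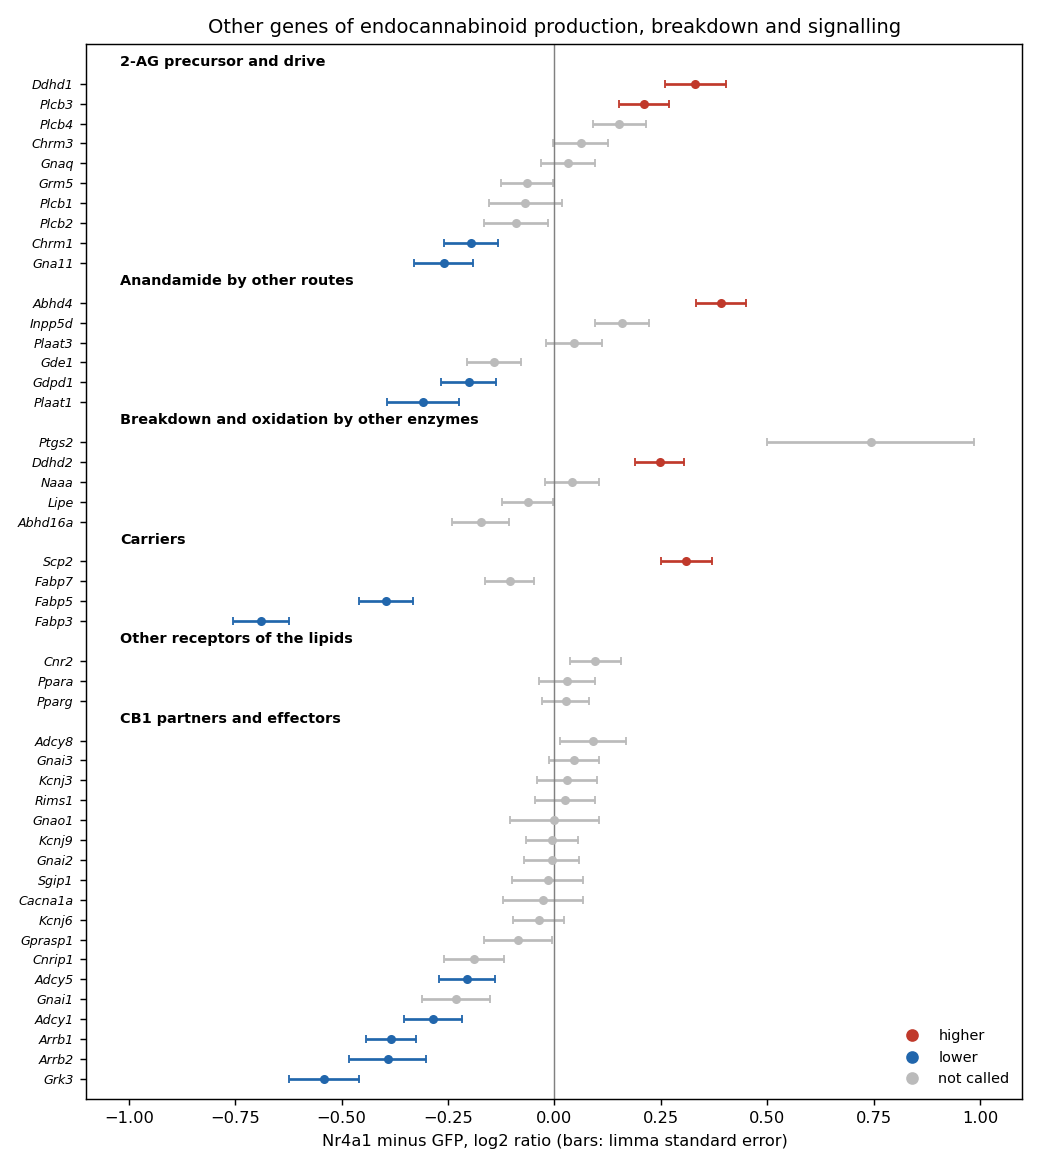
Nr4a1-labelled minus GFP-labelled log2 ratio (x axis) of 46 of the 47 tested genes around the endocannabinoid receptor and enzymes, grouped by role (y axis), with bars for the limma standard error and colour for the call. Fabp3 is lowest at -0.69, and Grk3, at -0.54, is lowest among the CB1 partners and effectors, of which 13 of 18 were not called.

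The genes whose log2 ratio most resembled that of each member over the 8 arrays, among 14980 named genes, are given as a description, since all points share the same arrays, groups and reference. Genes most like Cnr1 included Car12 (r = 0.964) and Brd8 (0.963). Dagla was most like Mn1, Afap1 and Arhgap21 (0.974 to 0.983), and Daglb like Stx4a, Olfr1184 and Cabyr (0.974 to 0.979). Mgll, on its brightest probe, was most like Cnrip1 (0.976), Hs3st6 (0.972) and Cdh10 (0.971). Abhd6 followed Cops7a (0.996), Wbp1 and Trappc13, Abhd12 followed Itm2c (0.988), Rn28s1 and Dcaf15, and Faah followed Prmt8 (0.975), Gabra5 and Rsph9.

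Neuronal markers were well represented, and 1 of 7 pan-neuronal genes, Syt1 (-0.25), was called, with mean log2 ratios of the list at 4.58 to 4.72 on the GFP-labelled arrays and 4.47 to 4.65 on the Nr4a1-labelled arrays. Glial genes were measurable too, as 6 of 6 astrocyte markers and 6 of 6 oligodendrocyte lineage markers passed the brightness filter. For the basket cells that are rich in CB1, 4 of 5 markers were tested and 1, Htr3a (-0.49), was lower. The other 3 were not called and went both ways, with differences from -0.22 to 0.20. The means of this list were 2.83 to 3.06 on the GFP-labelled and 2.71 to 2.83 on the Nr4a1-labelled arrays. Of the glutamatergic markers tested, Slc17a6 (0.59) was higher, Neurod6 (-0.39) was lower and the other 3 were not called, and of the 5 GABAergic markers Dlx1 (0.41) was higher. Of 6 astrocyte markers, in whose cells Mgll and Fabp7 are also made, Aqp4 (0.43) and Gja1 (0.37) were higher. The other 4 were not called and went both ways, with differences from -0.16 to 0.18. The list means were 3.90 to 4.05 and 4.04 to 4.22. In the oligodendrocyte lineage 4 of 6 were higher, Pdgfra (0.76) among them, while Mbp (-0.94) was lower. The list means were 0.03 to 0.28 and 0.50 to 0.61. Of 7 microglial markers Cx3cr1, P2ry12 and C1qa did not pass the filter, Csf1r (-0.75) was lower and the other 3 were not called. The list means were -1.19 to -1.12 and -1.46 to -1.36. Dcn (-0.59) was lower among 4 endothelial and fibroblast markers. Of the 41 markers tested, 8 were higher and 6 were lower, so 34.1% were called beside 24.4% of all features, 12.8% higher and 11.5% lower. By list the share called ran from 14.3% of the pan-neuronal to 83.3% of the oligodendrocyte lineage markers. With so few genes in a list, most of these counts are close to the share of all features. The part of these cell types in the differences of the 8 genes was not tested.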

How the data were processed

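RNA of 4 Nr4a1-labelled and 4 GFP-labelled samples of cultured neurons was measured on 2-colour Agilent arrays. The deposited scanner files give median signal and background intensities on a linear scale, together with the software's log10 ratio of Cy5 over Cy3, and their headers name Agilent Feature Extraction 11.0.1.1. The authors' deposited value table holds log2 ratios. Its columns correlated with the ratios computed here at 0.998 to 1.00 with slopes of 0.992 to 1.01 and medians of 0.024 to 0.0312, so it was read as log2 of sample over reference, but the sources used here do not say how its probes were chosen. The submitters' processing notes name limma without a version.

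Median signals were corrected with normexp (offset 50, which shrinks the folds of dim probes) after leaving out spots with a non-uniform local background. Ratios were normalised by loess within arrays with control spots at weight 0, outlier spots were left out and spots of a probe were averaged. Probes with Cy5 well above background on at least 4 of 8 arrays and at least 3 values per group were kept. RefSeq named 26581 probes and left 12848 unnamed. The probe of highest mean Cy5 stood for a gene. Differences were tested with limma 3.58.1 (R 4.3.3), two-sided, taking the pair as a fixed block. P-values were adjusted by Benjamini-Hochberg over 21116 features, and the fit was tested on simulated data. The pairing comes from a pair tag in the labels. The arrays of a pair deviated from their group means with correlations of -0.10, 0.28, -0.016 and 0.43 in replicates 1 to 4. Batch 2 is replicate 4 alone. The number of arrays limits the precision.

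Genes named are the 8 members with all probes, every called gene and the 3 of smallest p in each role group, the 3 genes of highest r with each member, Nr4a1, and up to 3 genes of each marker list. The members and lists were chosen with earlier results of these data known. Neighbouring genes were chosen after values were seen. Some named genes are not reported here.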

Additional observations from a re-analysis of the deposited data

Results flagged for a closer look

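Of the 16 sets of 4 values that make up the results of the 8 genes, 1 array stood far from the other 3 in 2 sets, where chance alone gives about 1 in 20 sets. Nr4a1-labelled replicate 1 of Dagla, at a log2 ratio of 3.54, lay above the other 3 Nr4a1-labelled arrays, which read 3.20 to 3.24. GFP-labelled replicate 3 of Mgll, at 5.61, lay above the other 3 GFP-labelled arrays, which read 5.47 to 5.49.

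The reference channel holds the same commercial RNA on every array and enters no comparison of its own. In it Cnr1 was 0.17 higher and Abhd6 0.20 higher on the Nr4a1-labelled arrays (limma on Cy3 alone, adjusted p = 0.0434 and 0.048). The groups did not overlap for either gene, nor for Dagla (0.099) and Daglb (-0.055), which were not called. Of all features 13.2% were called in this channel.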

How the results depend on the processing

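With the processing reported, 1 of the 8 genes was higher and 2 were lower. Among 20 alternative settings, 0 genes were higher and 1 was lower with all spots kept in the background correction, with a normexp offset of 16 and with Agilent's own ratio. With median centring 2 were higher and 1 lower, with Cy5 alone 2 were higher and 3 lower, and the authors' value table, which uses other probes for Mgll and Abhd6, gave 4 lower. In batch 1 alone, the same arrays as without replicate 4, 0 were higher. Leaving out each replicate gave 0 to 2 higher and 1 to 2 lower. A random slide block added to the replicate block left 0 higher and 0 lower, at a correlation within slides of 0.862, and left 8 rises and 4 falls among all features in place of 2711 and 2434. Without the replicate block 1 was higher and 3 were lower, the addition being Abhd12, and the same counts came with batch as the block.

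Cnr1 reversed to -0.44 with all spots kept and to -0.67 with Agilent's own ratio, Abhd6 to -0.012 with all spots kept, and Daglb to 0.031 with median centring, and the cause was not tested. Leaving out each replicate moved Daglb between -0.062 and 0.016. Over all features, 130 were higher and 98 lower with all spots kept, 1511 and 1350 with Agilent's own ratio, and 1768 and 1616 without replicate 1. Median centring moved the median of all features to 0.06 and made 73.3% of all calls higher, against 52.7% as reported.  Normalising average intensities between arrays left every log ratio as it was by construction. Abhd12 was called in 6 settings, Mgll and Cnr1 in 3 each and Dagla in 0. Napepld lost its call in 1 setting, Abhd6 in 7 and Faah in 9. The reference signal of Cnr1 was near background, which limits its ratio.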
